A study of Homo sapiens with 4 samples.

Results

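The genes described here encode nucleolar proteins that build ribosomes, together with subunits of RNA polymerase I and of the RNA exosome. They were taken by name from the deposited gene table. A protein-coding gene was a member if its name began with NOP, UTP, RRP, NOL or EXOSC and a digit, or with POLR1, or if it was 1 of 6 genes named singly (MRTO4, CCDC86, NCL, NPM1, FBL and DKC1). The rule found 60 genes among the 16174 in the table. It used no measured value, but the members were chosen with earlier results of these data known.

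The cells were of the line H9, human embryonic stem cells kept in the primed state. All 4 libraries came from cells given a transposon with dCas9-BFP-KRAB under doxycycline control, a Cas9 that binds DNA without cutting it and carries a blue fluorescent protein and a repressor domain. The cells were selected with puromycin and then given 1 µg/mL doxycycline. One arm carried a pool of 4 guides against the long non-coding RNA gene SNHG26, and the other carried non-targeting control guides. Each arm gave 1 library after 2 days of doxycycline and 1 after 3 days, so the controls shared the transposon, the repressor, the selection and the drug. The labels describe pools of transfected cells and name neither a clone nor a separate culture for a second replicate. The 2 libraries of an arm differ in day, and p-values between arms measure only the spread between these libraries.

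Ribosomes are assembled in the nucleolus, where RNA polymerase I transcribes a long precursor of the ribosomal RNAs. Small nucleolar ribonucleoproteins modify the precursor, the small-subunit processome and a separate set of large-subunit factors fold and cut it, and the RNA exosome trims its ends and degrades the spacers. Rapidly dividing stem cells make ribosomes at a high rate, and many of the genes involved are known targets of MYC, which binds the E-box sequence CACGTG.

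Nanopore reads came from PCR-amplified cDNA of poly(A) RNA with no molecular identifiers, and the authors deposited TPM, in which reads are divided by a length and scaled to each library's total. From the smallest steps in the values, the libraries held at most 947338 to 1220265 reads over the listed genes. One read on a gene of 10 kb was worth 0.653 to 0.803 TPM. The targeted gene SNHG26 stood at 0 TPM on day 2 and 0.933 TPM on day 3 with its guides, against 2.98 and 4.03 TPM with control guides. Of 12 listed markers of primed pluripotency, 11 were found, which means an entry in the deposited gene table. Of these, 9 reached a mean of 1 TPM. The sum of the 11 was 1658 to 1895 TPM, of which POU5F1 gave 1050 to 1212 TPM and SOX2 241 to 307 TPM. DPPA4 was at 183 to 315 TPM and DNMT3B at 3.17 to 11.7 TPM, while ZIC2 was among the 11 but listed at 0. Of 7 mesendoderm markers 3 were found, with EOMES and FOXA2 at 0 and a sum of 0 to 1.98 TPM. Of 5 fibroblast markers 2 were found, with sums of 62.5 and 61.3 TPM with SNHG26 guides and 57.6 and 88.6 TPM with control guides.

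Most of the gene set was expressed. A mean of at least 1 TPM, the level required for testing, was reached by 53 of 60 members (88.3%), against 49.9% of the 13693 protein-coding genes listed. The tested members had a median level of 14.7 TPM, and all 8274 tested genes one of 5.61 TPM. Levels differed widely between roles on this scale, which divides by a length that, for the genes whose values resolve into whole reads, is the whole genomic span with its introns. The 5 core proteins of small nucleolar ribonucleoproteins had a median of 92.7 TPM, the 8 polymerase I subunits one of 27.4 TPM and the 10 exosome subunits one of 19.6 TPM. The 12 large-subunit factors had a median of 7.87 TPM and the 20 small-subunit factors one of 7.03 TPM. The members NOP10, POLR1D and NPM1 together gave 63.5% of the set's TPM, and NOP10 alone gave 38.7%.

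**Figure D1:**
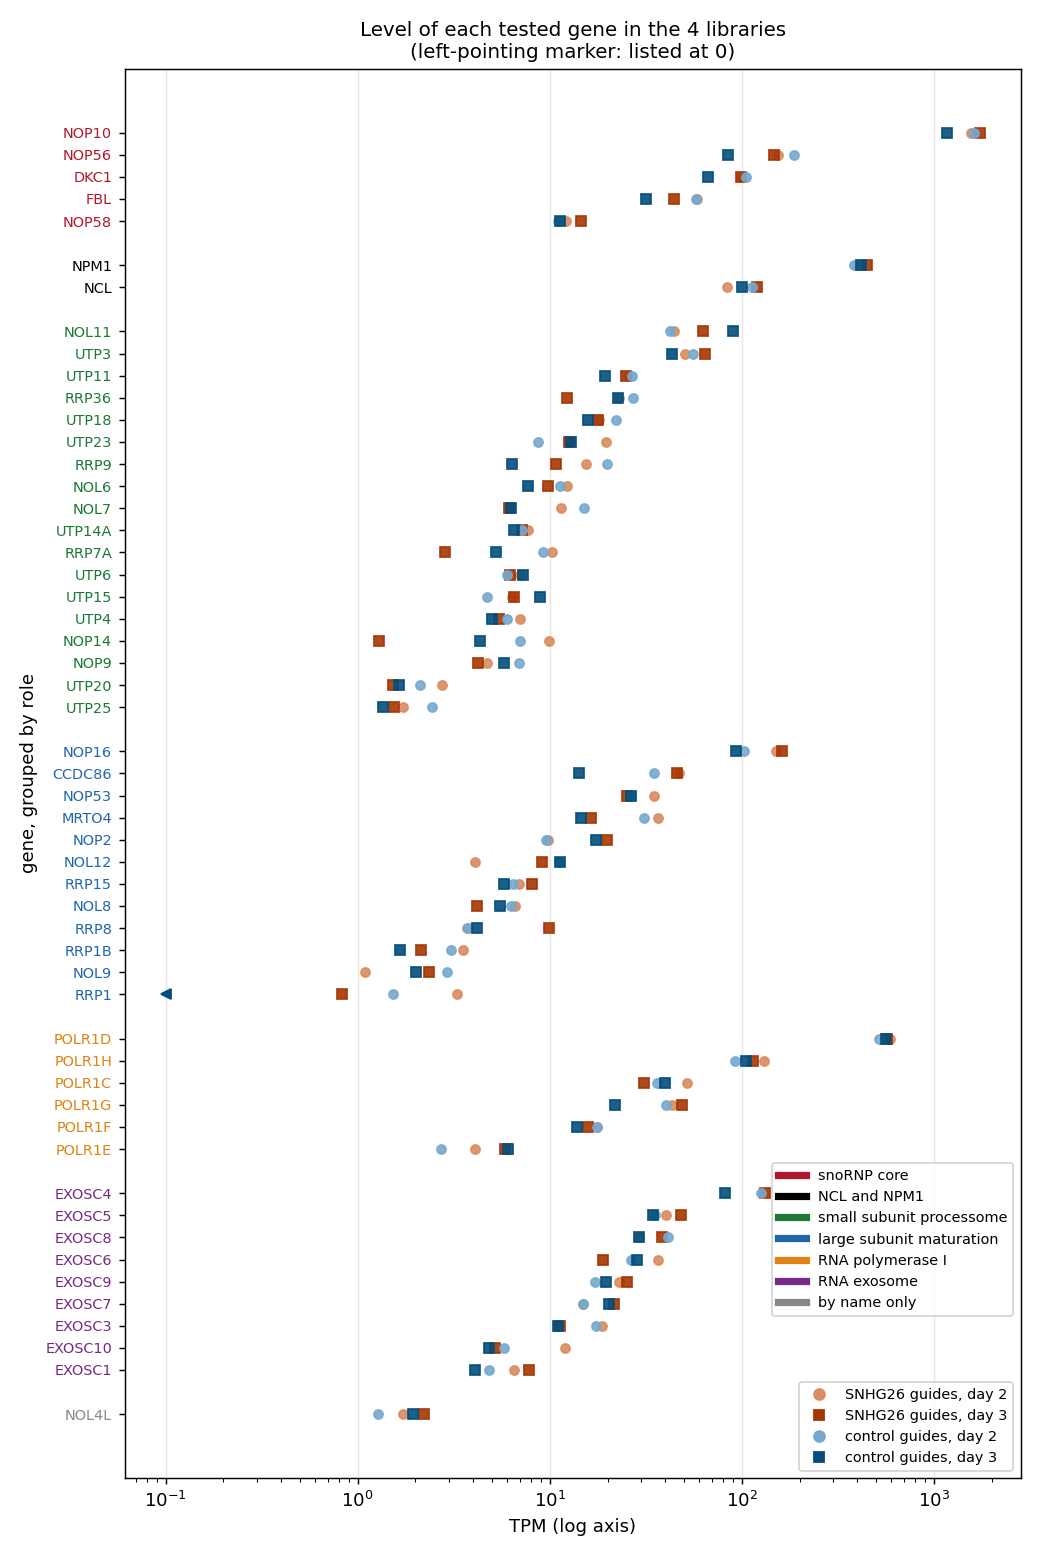
Level of each of the 53 tested genes in the 4 libraries, in TPM on a log axis, grouped by role; each marker is 1 library. NOP10 lies highest in every library (1167 to 1735 TPM), and the small-subunit factors lie far lower, the highest being NOL11 at up to 90.2 TPM.

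The 7 members below the testing level were EXOSC2, NOL10, NOL3, NOL4, POLR1A, POLR1B and RRP12. NOL4 was listed at 0 in all 4 libraries, and NOL3 was at 1.29 TPM in the day 3 control library and at 0 in the others. POLR1A and POLR1B, which encode the catalytic core of polymerase I, were at 0.153 to 1.31 TPM and 0 to 0.457 TPM. These values stood for at most 2.01 to 16.8 reads and 0 to 2.16 reads. These 7 genes were given no test.

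Promoters are shown because 17 of the 52 members with an entry in the RefSeq promoter table (GRCh38.p14) hold the palindrome CACGTG between 250 bases before and 50 bases after the transcription start. That is 32.7% of members, against 10.7% of the 5685 tested protein-coding genes with an entry, 7.43% of all 27305 windows and 24.1% of 83 other genes of the pathway. The upstream 250 bases of 4 genes that recur in the results are given 5′ to 3′ on the gene's own strand, with the palindrome in capitals: CCDC86 (chr11:60841863-60842112, plus strand), NOP10 (chr15:34343137-34343386, minus strand), EXOSC5 (chr19:41397360-41397609, minus strand) and NOL7 (chr6:13615085-13615334, plus strand).
CCDC86: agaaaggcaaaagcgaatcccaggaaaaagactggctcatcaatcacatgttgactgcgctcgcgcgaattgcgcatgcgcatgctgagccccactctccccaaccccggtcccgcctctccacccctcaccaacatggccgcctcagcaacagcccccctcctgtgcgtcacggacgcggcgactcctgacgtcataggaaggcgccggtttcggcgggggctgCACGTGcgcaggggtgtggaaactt
NOP10: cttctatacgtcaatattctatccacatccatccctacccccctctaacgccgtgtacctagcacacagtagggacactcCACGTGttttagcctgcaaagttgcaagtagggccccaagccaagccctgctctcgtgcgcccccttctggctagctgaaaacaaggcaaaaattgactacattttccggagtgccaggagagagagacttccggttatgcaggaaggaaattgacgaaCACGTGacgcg
EXOSC5: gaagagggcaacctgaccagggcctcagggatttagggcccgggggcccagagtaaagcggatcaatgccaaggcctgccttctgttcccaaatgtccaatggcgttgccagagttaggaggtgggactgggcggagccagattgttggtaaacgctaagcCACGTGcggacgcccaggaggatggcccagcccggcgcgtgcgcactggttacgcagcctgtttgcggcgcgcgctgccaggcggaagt
NOL7: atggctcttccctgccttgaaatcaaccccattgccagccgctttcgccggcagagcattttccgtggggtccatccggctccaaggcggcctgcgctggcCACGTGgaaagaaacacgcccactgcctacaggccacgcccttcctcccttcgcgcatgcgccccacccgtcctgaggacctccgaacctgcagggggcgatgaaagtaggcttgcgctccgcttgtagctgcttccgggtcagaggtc

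The palindrome began 25 bases before the start in CCDC86, 170 and 11 bases before it in NOP10, 89 bases before it in EXOSC5 and 149 bases before it in NOL7. EXOSC5 held another copy 15 bases after the start. In all, 20 copies lay in the 17 windows, 12 of them before the start, and 3 genes held 2 copies. Small-subunit factors held it in 9 of 17 windows, large-subunit factors in 4 of 11, small nucleolar ribonucleoprotein genes in 2 of 4, and polymerase I and exosome genes in 1 of 7 and 1 of 8. Neither NCL nor NPM1 held it.

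**Figure D2:**
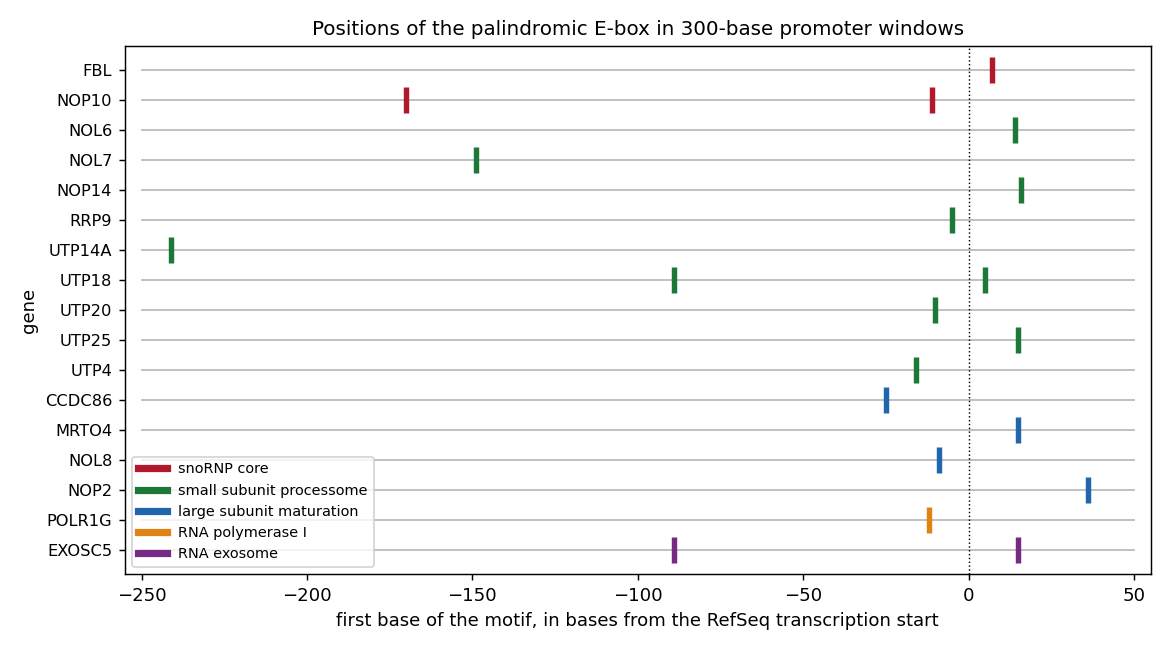
Position of each CACGTG in the 17 promoter windows that hold it, in bases from the RefSeq transcription start, with color for the gene's role. Many copies sit within a few bases of the start, and those of UTP14A, NOP10 and NOL7 lie farthest upstream.

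Other motifs were counted on both strands in the same windows. CCGGAAG, the core of ETS factors, was in 14 of 52 member windows (26.9%), 23.4% of those of tested coding genes and 43.4% of those of other pathway genes. The palindrome CTCGCGAG, recognised by ZBTB33, was in 6 windows (11.5%, against 2.48% of tested coding genes and 2.41% of other pathway genes). The YY1 core AAGATGGCG was in 4 windows (7.69%, against 4.82%) and the NRF1 core CGCATGCG in 5 (9.62%, against 4.52%). CCAAT was in 18 (34.6%, against 40.1%). The motifs are letters in a window and say nothing of binding in these cells. The windows rest on RefSeq starts, which lay within 100 bases of the start in the deposited table for 34 of the 52 genes.

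The comparison between guides asked whether transcripts of the ribosome-building genes differ between SNHG26 guides and control guides. No member passed the threshold in limma with Benjamini-Hochberg adjustment over all 8274 genes, and no tested gene did (0%). The targeted gene SNHG26 was among the tested genes that did not pass. One member, NOP16, was under an unadjusted p of 0.05 (1.89%, against 4.07% of all genes). Without limma's trend option no member was. Adjusted p-values of members ran from 0.9351 to 0.9984, and log2 changes from -0.77 for NOL12 to 1.02 for CCDC86.

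The direction leaned upward with SNHG26 guides. Of the 53 tested members, 23 (43.4%) were higher with SNHG26 guides on both days, against 24.8% of all tested genes, and 4 were lower on both days, against 21.8%. Both SNHG26-guide libraries lay above both control libraries for 12 members (22.6%, against 16.1%), and both lay below for 2 (against 13.2%). On day 2, 35 of 53 were higher with SNHG26 guides (66.0%, against 46.1%), and on day 3, 37 of 53 were (69.8%, against 51.6%). The median log2 change was 0.16 for members and 0.04 for all tested genes.

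The members were also more highly expressed than most tested genes, so the same counts were taken among abundant genes. Where the mean reached 20 TPM, a level chosen after the data were seen, 11 of 23 members were higher on both days (47.8%), against 35.8% of 2032 genes. On day 3, 78.3% of those 23 members and 66.7% of those genes were higher with SNHG26 guides. The median log2 change at this level was 0.22 for members and 0.09 for all. The lean rested on 2 libraries. Without the day 3 control library the median over the 53 members was 0.05 and that over all tested genes 0.02, and without the day 2 library of SNHG26 guides both were 0.06. Without either of the other libraries the members' median was 0.20 or 0.22, against 0.00 and 0.04. The day 3 control library was the lowest of the 4 for 26 of 53 members (49.1%, against 25.5% of all tested genes), and for 13 of the 23 more abundant members (56.5%, against 36.0%). The day 2 library of SNHG26 guides was the lowest for 5 members (9.43%, against 29.8%) and the highest for 20. The members' summed TPM was 4124 and 4279 with SNHG26 guides and 3997 and 3334 with control guides on days 2 and 3, and 2554, 2544, 2381 and 2167 in that order without NOP10. Of the fibroblast markers, THY1, which primed stem cells also express, was at 84.4 TPM in the day 3 control library and at 54.4 to 58.4 TPM in the others, while COL1A1 was at 2.98 to 4.21 TPM over all 4. Their part in the result was not tested. In bulk RNA, fewer cells with a transcript and less of it per cell cannot be told apart.

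**Figure D3:**
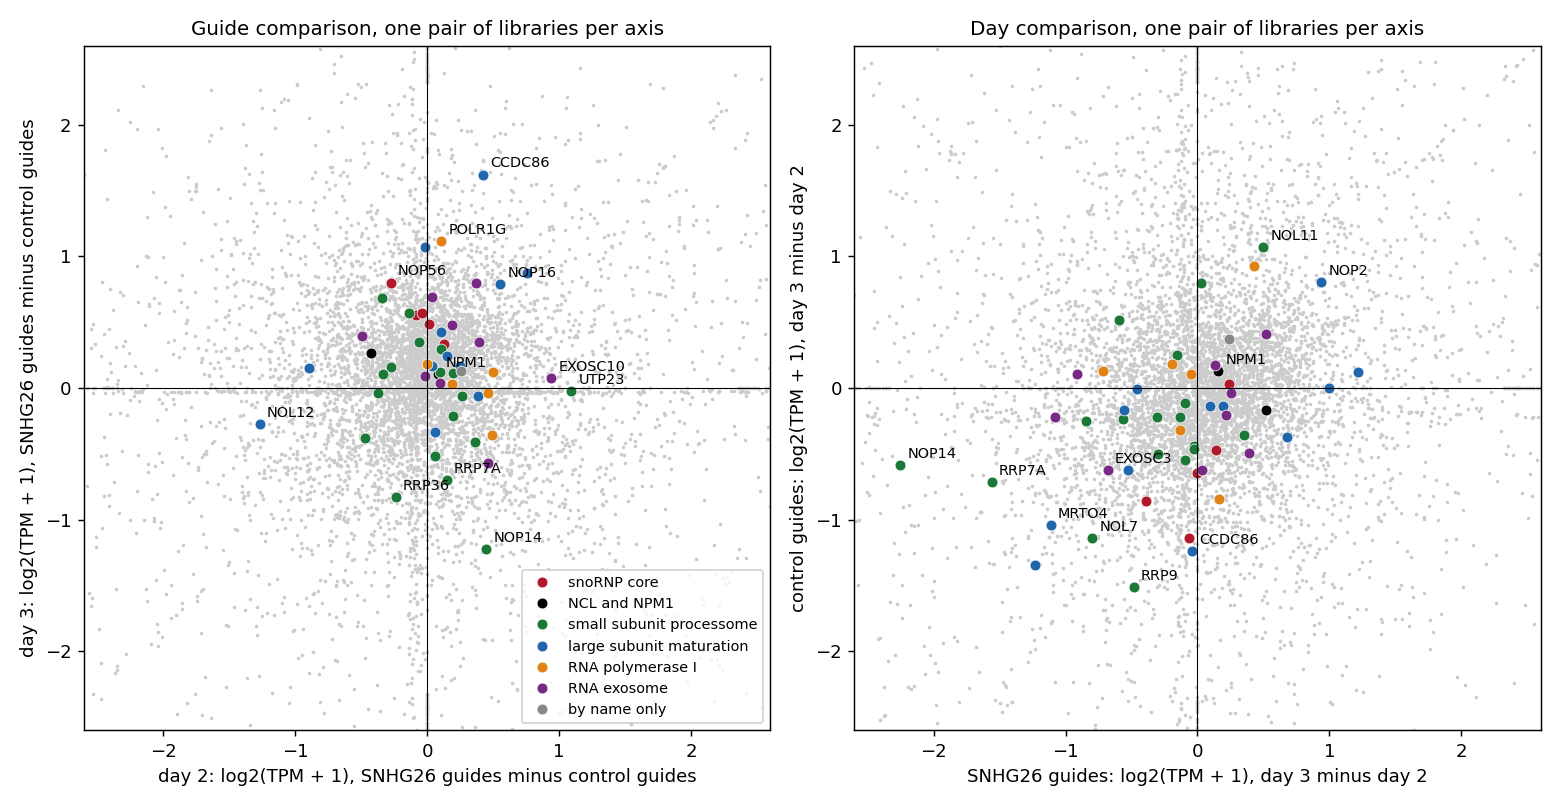
Changes of single genes on the log2(TPM + 1) scale, with members over all tested genes; the panels set the guide change of day 3 against that of day 2, and the day change of control guides against that of SNHG26 guides. Of 53 members, 23 were higher with SNHG26 guides on both days, and 25 were lower on day 3 in both arms.

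Polymerase I subunits and their values open the account by role. POLR1D, a small subunit shared with RNA polymerase III, was at 592 and 573 TPM with SNHG26 guides on days 2 and 3, and at 520 and 560 TPM with control guides. POLR1H, another small subunit, was at 131 and 115 TPM against 92.5 and 105 TPM. For both genes the arms did not overlap, but the gap was narrow: POLR1D had a log2 change of 0.11 ± 0.13 (SE) and POLR1H one of 0.31 ± 0.20 (limma, both adjusted p at least 0.9351). POLR1G was the third subunit without overlap, at 43.3 and 48.7 TPM against 40.2 and 22.0 TPM, where the day 3 control library stood apart. These were 3 of 6 tested subunits (50.0%), against 16.1% of all tested genes. POLR1G overlaps ERCC1, POLR1C overlaps XPO5 and YIPF3, and POLR1H overlaps POLR1HASP, all on the opposite strand. The strand setting of the counting is not given in the sources used here, so reads of such neighbours may be mixed.

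The core proteins of small nucleolar ribonucleoproteins act in the chemical modification of ribosomal RNA. NOP10, part of the pseudouridylation complex and of telomerase, was at 1570 and 1735 TPM with SNHG26 guides and at 1617 and 1167 TPM with control guides. DKC1, the pseudouridine synthase of that complex, was at 99.2 and 98.8 TPM against 106 and 67.0 TPM. In both genes 3 libraries were close and the day 3 control library was lower. NOP56, a scaffold of the methylation complex, was at 154 and 148 TPM against 187 and 84.3 TPM. FBL, the ribose methyltransferase of that complex, was at 58.7 and 44.6 TPM against 58.1 and 31.6 TPM. NOP58, the partner of NOP56, was at 12.1 and 14.5 TPM against 11.02 and 11.3 TPM, and its arms alone did not overlap among these 5 genes.

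On day 3 all 5 were higher with SNHG26 guides, with a median difference of 0.55 on the log2 scale, while on day 2 the median was -0.04. Averaged over days, their log2 changes were 0.23 to 0.26, with adjusted p-values of 0.9351 to 0.9896 in limma. The difference between days in the guide change was itself tested as a crossed term. With 1 library per arm and day, the term was fitted alone, so its spread includes the differences between arms and between days. A lack of small p-values therefore does not show that the guide change was alike on both days. No member passed with Benjamini-Hochberg adjustment, against 0.0967% of all tested genes, and none was under an unadjusted p of 0.05, against 3.52%. The smallest member p was 0.1207, for EXOSC8, and no adjusted p was under 0.9613. Without the day 3 control library the guide change of NOP56 was -0.31 and that of DKC1 -0.09. NOP56 holds the gene of SNORA51 in its span, listed at 110, 99.0, 0 and 204 TPM in the same library order, each made of at most 4 reads.

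NPM1 and NCL, abundant nucleolar proteins that bind ribosomal RNA and act as chaperones, showed no gap between arms. NPM1 was at 404 and 451 TPM with SNHG26 guides and at 382 and 419 TPM with control guides, a log2 change of 0.09 ± 0.15 (SE). NCL was at 83.8 and 121 TPM against 113 and 100 TPM, so the arms overlapped and the sign differed between days. The 6 processed pseudogenes of NPM1 carried 9, 8, 5 and 20 reads in all in the 4 libraries, and an exchange of reads with the parent gene was not tested.

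Large-subunit factors gave the members with the widest gap between arms. NOP16, a nucleolar protein of large-subunit assembly, was at 151 and 162 TPM with SNHG26 guides on days 2 and 3, and at 103 and 93.3 TPM with control guides. Its means were 156 ± 7.46 and 98.004 ± 6.68 TPM (SD, n = 2 each). NOP16 had the smallest p of the tested members between guides in limma, and a gap wide for its spread goes with that rank. The log2 change was 0.67 ± 0.19 (SE), with an adjusted p of 0.9351 in limma with Benjamini-Hochberg adjustment. It ran from 0.60 to 0.74 when each library was left out in turn. Without limma's trend option its SE was 0.28 and its unadjusted p 0.083. NOP16 shares 177 bases with HIGD2A on the opposite strand, which was at 1103, 1176, 1057 and 923 TPM in the 4 libraries, and a share of its reads in NOP16 was not tested.

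CCDC86, a nucleolar protein that also coats mitotic chromosomes, had the largest log2 change of the set at 1.02 ± 0.49 (SE, adjusted p = 0.9351 in limma). It was at 47.1 and 45.9 TPM with SNHG26 guides and at 34.9 and 14.2 TPM with control guides. Its values resolve into whole reads, 58 and 63 against 39 and 19, with exact 95% Poisson intervals of 44.0 to 75.0 and 48.4 to 80.6 against 27.7 to 53.3 and 11.4 to 29.7, which cover counting error only. The SNHG26-guide libraries were alike and the control libraries were not, and the log2 change was 0.40 without the day 3 control library. MRTO4, a nucleolar factor related to the stalk protein of the large subunit, was at 36.8 and 16.5 TPM against 30.9 and 14.5 TPM, with the arms overlapping. NOL12, an RNA-binding nuclease, was lower with SNHG26 guides, at 4.08 and 9.14 TPM against 11.2 and 11.3 TPM, and its adjusted p was 0.9351 in limma. Its values stood for at most 6.60 and 16.5 reads against 16.5 and 19.8. Its log2 change was -0.27 without the day 2 library of SNHG26 guides and -1.27 without their day 3 library. Of the 12 large-subunit factors, 7 were higher on both days (58.3%, against 24.8% of all tested genes) and 1 was lower.

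**Figure D4:**
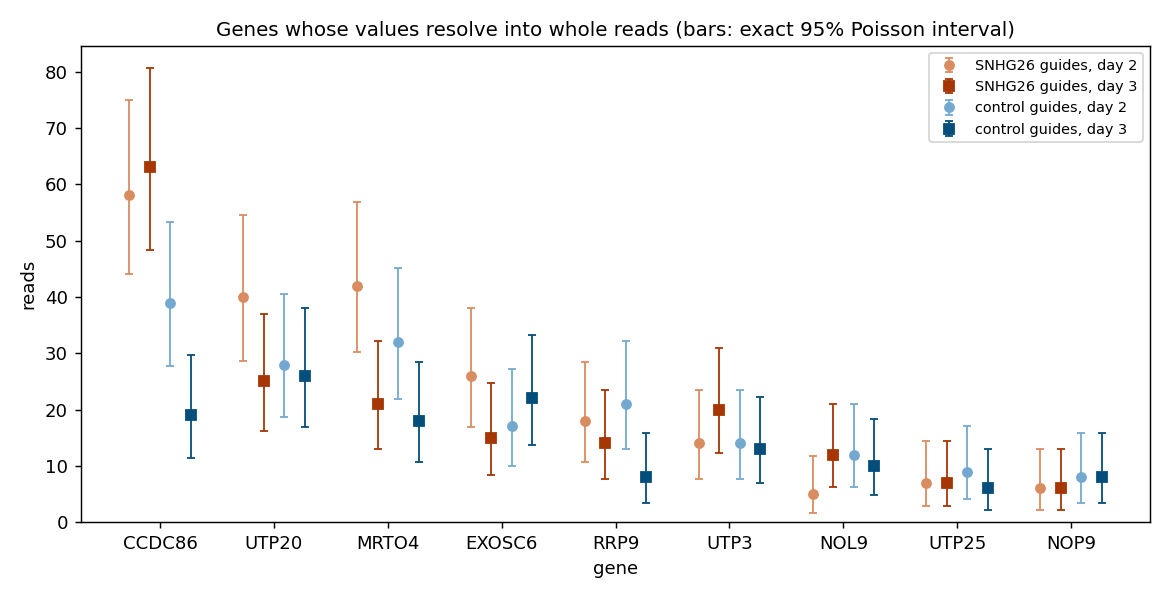
Read numbers of the 9 genes whose deposited values resolve into whole reads in every library; points are libraries and bars are exact 95% Poisson intervals. CCDC86 has 58 and 63 reads with SNHG26 guides and 39 and 19 with control guides, and MRTO4 is lower on day 3 in both arms.

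Exosome subunits were higher with SNHG26 guides on both days in 6 of 9 tested genes (66.7%, against 24.8% of all tested genes) and lower on both in none. The median log2 change was 0.33. EXOSC4, EXOSC5 and EXOSC9 belong to the ring of the complex and EXOSC1 to its RNA-binding cap. EXOSC5 was at 40.5 and 48.5 TPM with SNHG26 guides and at 35.5 and 34.5 TPM with control guides. EXOSC9 was at 23.0 and 25.4 TPM against 17.3 and 19.7 TPM, and EXOSC1 at 6.55 and 7.78 TPM against 4.83 and 4.06 TPM. The values of EXOSC1 stood for at most 9.08 and 12.05 reads against 6.08 and 6.12. EXOSC4 was at 129 and 132 TPM against 126 and 81.5 TPM, where the day 3 control library alone stood apart. The arms did not overlap in these 4 of the 9 tested genes (44.4%, against 16.1% of all tested genes). EXOSC1, EXOSC5 and EXOSC9 were named for their consistent change between guides, which makes such a gap more likely. The log2 changes of the 4 genes were 0.33 to 0.58, with standard errors of 0.24 to 0.32 and adjusted p-values of 0.9351 in limma. EXOSC9 overlaps CCNA2 on the opposite strand, which was at 61.7 and 48.3 TPM against 46.4 and 56.9 TPM, and a share of its reads in EXOSC9 was not tested.

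Of 18 tested small-subunit factors, 3 were higher with SNHG26 guides on both days (16.7%, against 24.8% of all tested genes) and 3 lower (16.7%, against 21.8%), and the median log2 change was -0.02. NOL11, which joins transcription to early processing, was at 44.3 and 62.9 TPM with SNHG26 guides and at 42.4 and 90.2 TPM with control guides. UTP3, a processome protein, was at 50.5 and 64.7 TPM against 55.7 and 43.2 TPM. In both genes the order of the arms differed between days.

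The small-subunit factors that were lower on both days were NOP9, RRP36 and NOL7. NOP9, which binds the precursor near a cleavage site, was at 4.72 and 4.23 TPM against 6.93 and 5.79 TPM, from 6 and 6 reads against 8 and 8, with overlapping Poisson intervals of 2.20 to 13.1 and 3.45 to 15.8 reads. RRP36 was at 22.8 and 12.3 TPM against 27.1 and 22.6 TPM, and NOL7 at 11.4 and 6.14 TPM against 15.1 and 6.32 TPM. The arms overlapped in RRP36 and NOL7, and the log2 changes of the 3 genes ran from -0.53 to -0.20 with adjusted p-values of 0.9351 to 0.9984 in limma. That of RRP36 was -0.96 without the day 2 library of SNHG26 guides and -0.11 without their day 3 library. NOL4L, which the rule takes by name and to which no role in ribosome building is given here, was at 1.73 and 2.22 TPM against 1.28 and 1.95 TPM.

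The day comparison set day 3 against day 2 across both arms. No member passed the threshold, against 0.0363% of all genes (3 of 8274), and 6 members were under an unadjusted p of 0.05 (11.3%, against 6.61%). Members were more often lower on day 3: 25 of 53 (47.2%) were lower in both arms, against 24.8% of all tested genes, and 11 (20.8%) were higher in both, against 24.3%. Both day 3 libraries lay below both day 2 libraries for 22 members (41.5%, against 18.4%), and above for 8 (15.1%, against 17.1%). At a mean of 20 TPM or more the count lower in both arms was 8 of 23 (34.8%, against 25.5%). The median log2 change was -0.23 for members and 0.01 for all tested genes, and it was -0.05 without the day 3 control library. Within arms the median was -0.05 with SNHG26 guides and -0.22 with control guides.

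By role, 13 of the 18 tested small-subunit factors (72.2%, against 24.8% of all tested genes) were lower on day 3 in both arms. So were 3 of 5 small nucleolar ribonucleoprotein genes, 6 of 12 large-subunit factors, 2 of 9 exosome subunits (22.2%) and 1 of 6 polymerase I subunits (16.7%). Both day 3 libraries lay below both day 2 libraries for 11 small-subunit factors (61.1%, against 18.4% of all tested genes). The same held for 3 of 5 small nucleolar ribonucleoprotein genes and 5 of 12 large-subunit factors. It also held for 2 of 9 exosome subunits (22.2%) and 1 of 6 polymerase I subunits (16.7%). The median log2 change of the small-subunit factors was -0.25. Other genes of small-subunit assembly that the naming rule does not take stood at 11 of 29 (37.9%) lower in both arms, with a median of -0.14, and the difference between the lists was not tested. NOL7 was at 11.4 and 15.1 TPM on day 2 with SNHG26 and control guides, and at 6.14 and 6.32 TPM on day 3. RRP7A, a processome protein, was at 10.3 and 9.20 TPM on day 2 and at 2.83 and 5.22 TPM on day 3. Its values stood for at most 16.7 and 13.5 reads on day 2, and 5.13 and 9.19 on day 3. Neither gene's days overlapped, and their log2 changes were -0.97 ± 0.28 and -1.14 ± 0.36 (SE), with adjusted p-values of 0.6279 and 0.6998. NOP14 had the most negative day change, -1.42, from 9.92 and 7.00 TPM on day 2 and 1.29 and 4.34 TPM on day 3, and was singled out after its values were seen. Its values stood for at most 34.7 and 22.2 reads on day 2, and 5.02 and 16.5 on day 3. NOP14-AS1 overlaps it on the opposite strand, at 2.34 TPM in the day 2 library of SNHG26 guides and 0 in the others. A share of its reads in NOP14 was not tested.

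Beyond the small-subunit factors, MRTO4 had the smallest p of the set. It was at 36.8 and 30.9 TPM on day 2 and at 16.5 and 14.5 TPM on day 3, from 42 and 32 reads and from 21 and 18. The day means were 33.8 ± 4.17 and 15.5 ± 1.38 TPM (SD, n = 2 each). The log2 change was -1.08 ± 0.23 (SE), with an adjusted p of 0.45 in limma, and it lay between -1.20 and -0.95 when each library was left out. EXOSC3, a cap subunit of the exosome, was at 18.8 and 17.5 TPM on day 2 and at 11.4 and 10.99 TPM on day 3 (adjusted p = 0.7372 in limma).

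A few genes were higher on day 3. NOP2, a cytosine methyltransferase of the large-subunit ribosomal RNA, was at 9.83 and 9.54 TPM on day 2 and at 19.8 and 17.4 TPM on day 3, a log2 change of 0.87 ± 0.24 (SE, adjusted p = 0.5952 in limma). NOL11 was at 44.3 and 42.4 TPM on day 2 and at 62.9 and 90.2 TPM on day 3 (log2 change 0.78, adjusted p = 0.7033 in limma). EXOSC7, a ring subunit, was at 14.8 and 15.0 TPM against 21.6 and 20.3 TPM. In these 3 genes the days did not overlap, and in NOL11 the day 3 control library was the highest of the 4.

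**Figure D5:**
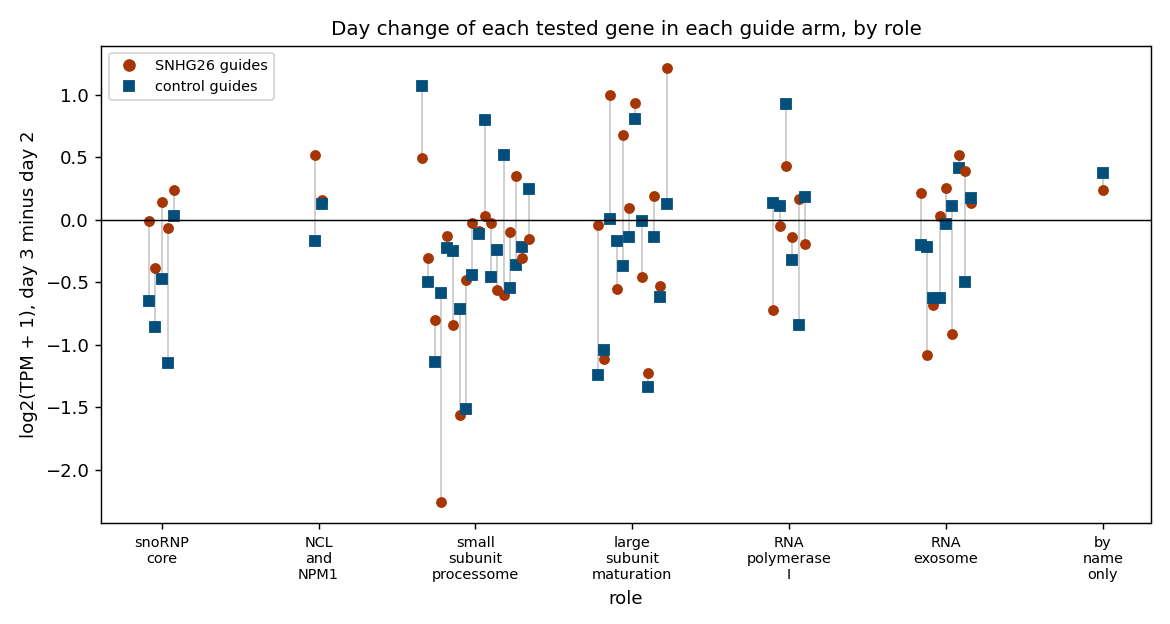
Day change of each tested gene within each guide arm, on the log2(TPM + 1) scale, by role; circles are SNHG26 guides and squares are control guides. Among the 18 small-subunit factors 13 are below 0 in both arms, while NPM1 and NCL have no such gene.

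The promoter palindrome and the day change can be set side by side. Of the 17 tested members with CACGTG, 13 (76.5%) were lower on day 3 in both arms, with a median log2 change of -0.36. Of the 30 tested members with an entry and no palindrome, 11 (36.7%) were, with a median of -0.01. Over all tested coding genes the shares with and without the palindrome were 29.7% of 610 and 27.4% of 5075, with medians of -0.01 and 0.00. For the guide comparison, 9 of 17 members with the palindrome (52.9%) and 10 of 30 without it (33.3%) were higher on both days, against 26.6% and 27.6% of all tested coding genes with and without it. NOL7, RRP9, NOP14, MRTO4 and FBL hold the palindrome and were lower on day 3 in both arms, whereas NOP2, which also holds it, was higher. As above, 9 of the 17 palindrome genes are small-subunit factors, and the part of the palindrome in the day change was not tested.

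Other genes of ribosome building, listed from known assembly factors outside the naming rule, gave a comparison within the pathway. Of 102 listed, 98 were found and 88 tested, and 0 passed the threshold between guides or between days in limma. Between guides 2 were under an unadjusted p of 0.05 (2.27%, against 4.07% of all tested genes), and between days 2 (against 6.61%). On day 3, 27 of the 88 were lower in both arms (30.7%, against 24.8% of all tested genes) and 19 higher (21.6%, against 24.3%). Their median log2 change between days was -0.02. At a mean of 20 TPM or more, 4 of 26 were lower in both arms (15.4%, against 25.5%). With SNHG26 guides, 21 of the 88 were higher on both days (23.9%, near the 24.8% of all tested genes) and 26 lower (29.5%, against 21.8%). Their median log2 change between guides was -0.05. MAK16, a large-subunit factor, was at 11.6 and 11.7 TPM against 4.45 and 6.39 TPM, and PDCD11, a processome scaffold, at 11.2 and 15.3 TPM against 6.82 and 7.30 TPM. PNO1, a factor of late small-subunit maturation, was at 12.3 and 10.7 TPM against 9.63 and 6.59 TPM. In the opposite direction, GNL2, a nucleolar GTPase, was at 27.1 and 23.8 TPM against 57.4 and 37.1 TPM, NSA2 at 12.003 and 16.9 TPM against 33.9 and 22.1 TPM, and WDR3 at 3.40 and 4.86 TPM against 6.46 and 8.93 TPM. These 6 genes were chosen for a large change in the same direction on both days, which makes a gap between arms likely. For all 6 the arms did not overlap and the adjusted p was 0.9351 in limma. Of the 88 genes, both SNHG26-guide libraries lay above both control libraries for 15 (17.05%, against 16.1% of all tested genes). Both lay below for 20 (22.7%, against 13.2%).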

How the data were processed

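TPM per gene is the only unit the authors deposited, in 1 table with a column for each library. Reads were aligned with minimap2 2.24-r1122 to GRCh38, per the submitters' processing notes. The counting tool, its strand setting and the annotation are not given in the sources used here. Gene coordinates and names are those of the table. All columns were mapped to samples by their labels.

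Steps in the deposited TPM gave each library's value of 1 read. For 2853 genes, 9 of them members, the values were whole reads over the genomic span within 0.0001 read. For the others, read totals are upper bounds on the full span. TPM with no constant unit per library was not tested as counts.

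The 8274 genes whose mean reached 1 TPM were tested on log2(TPM + 1), a scale on which changes of low genes look smaller. The test was limma's moderated fit with its trend option (limma 3.58.1, R 4.3.3), with Benjamini-Hochberg adjustment over all of them and a threshold of 0.05. The scripts were tested on simulated data. Guides, days and their crossed term were each fitted alone over 4 libraries. Libraries are paired across arms by the day of doxycycline in the labels, and the deviations of same-day libraries had a correlation of 0.0464 over 8274 genes. Alternatives were other pseudocounts, filters and scalings, no trend, a replicate block and leaving out each library.

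Members, gene lists and tests were chosen with earlier results of these data known. Named with every library's value were the 6 genes named singly, the 2 most abundant per role, the 5 with the largest consistent change each way between guides (4 qualified as lower) and the 3 each way between days at a mean of at least 5 TPM, those with an unadjusted p under 0.05, the 3 of widest range at a mean of at least 20 TPM, and 3 other pathway genes each way. POLR1G, NOP58, RRP9 and NOP14 were named after their values were seen. Promoter windows came from RefSeq (GRCh38.p14). The 8 members without an entry are EXOSC4, RRP1B, POLR1E, RRP12, UTP23, NOP58, NOL10 and EXOSC1. Of 5 neuroectoderm markers 2 were found (sum 17.1 to 24.5 TPM), and of 5 amnion markers 1 (0 to 1.28 TPM).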

Additional observations from a re-analysis of the deposited data

How the results depend on the processing

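No member passed the threshold between guides, between days or in the crossed term under any alternative run. Without a filter, the smallest adjusted p of a member between guides was 0.7195 in limma. With the other factor as a replicate block the counts stayed at 0, with smallest adjusted p-values of 0.9082 between guides and 0.743 between days, and the block changed no call. The median guide change of members (0.16) was 0.10 with a pseudocount of 5, 0.11 without a filter, 0.11 with median ratio scaling and 0.22 at a mean of at least 20 TPM, with or without the replicate block, a level chosen after the data were seen. It ran from 0.0469 to 0.22 when each library was left out, and the median day change (-0.23) from -0.25 to -0.0498.

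For each comparison 345 values of 26 named genes were recomputed, and 20 turned in sign. The guide change of EXOSC7 was -0.0121 with median ratio scaling, and the day change of EXOSC1 -0.017 with quantile normalization. With each library left out in turn, guide changes that turned in sign ran from -0.35 to 0.76 for MRTO4, -0.34 to 0.18 for NCL, -0.76 to 0.31 for NOL11, -0.27 to 0.41 for EXOSC3, -0.77 to 0.36 for NOL7, -0.37 to 0.57 for NOP2, -0.22 to 0.29 for EXOSC7, -1.06 to 0.50 for RRP7A, -0.18 to 0.68 for FBL, -0.0913 to 0.56 for DKC1 and -0.31 to 0.83 for NOP56. Day changes that turned ran from -0.0377 to 0.39 for NCL, -0.26 to 0.24 for POLR1H, -0.41 to 0.37 for NOP16, -0.13 to 1.14 for NOL12, -0.13 to 0.35 for EXOSC5, -0.39 to 0.41 for EXOSC1, -0.0406 to 0.35 for EXOSC9, -0.41 to 0.0597 for NOP9, -0.0626 to 0.13 for POLR1D, -0.29 to 0.28 for UTP3, -1.45 to 0.17 for CCDC86, -0.64 to 0.0512 for EXOSC4 and -0.45 to 0.12 for NOP10. The arm or day that lost a library kept 1, which was assumed to vary like the rest. The number of reads limits genes of a few TPM, as in NOP9.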
